A study of Mus musculus with 4 samples.

Results

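The genes described here are 10 surfactant protein, lamellar body and alveolar type 2 cell genes, taken by name from a table of 35275 gene identifiers. They are Sftpc, Sftpb, Sftpa1, Sftpd, Abca3, Lamp3, Napsa, Slc34a2, Lpcat1 and Lyz2. All 10 were found, and all 10 passed the filter on low values that left 13147 genes for testing. RNA was sequenced from lung tumours of Balb/c mice, with 2 libraries from wild-type animals (Nrf2 +/+) and 2 from animals lacking Nrf2 (Nrf2 -/-). Every animal had been given the chemical carcinogen vinyl carbamate at 16 mg/kg, in 2 or 4 doses, and tumours were taken 40 to 44 weeks after the carcinogen was started. Each library came from a pool of 3 to 4 tumours, and the number of doses, weeks or tumours behind any 1 library is not given in the sources used here. The gene is missing from the animal as labelled and not from 1 cell type, so tumour cells and the cells around them share the genotype.

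Alveolar type 2 cells are the secretory cells of the lung's air sacs. They make surfactant, a film of phospholipid and protein that lowers surface tension at the air surface, and store it in lamellar bodies before release. They also renew the flat type 1 cells of the alveolus, and many mouse lung adenomas carry their features. Nrf2 is the protein of the gene Nfe2l2 and switches on antioxidant and detoxification genes. Levels are given in FPKM, fragments scaled to gene length and library size, so that genes of different length can be compared within a library. Pairs of values stand in the order wild type 1, wild type 2, and then knockout 1, knockout 2.

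The steps between low values put the libraries at 21659572 and 21220307 reads in wild type and 17975646 and 16892588 reads in knockout. The targeted gene Nfe2l2 was at 96.3 and 87.9 FPKM in wild-type tumours and 3.66 and 2.96 FPKM in knockout tumours, as labelled (limma adjusted p = 0.000378). Of the 13147 genes tested, 15 (0.114%) were called at a limma adjusted p under 0.05, 10 higher and 5 lower in knockout tumours. With quantile normalization the split was 6 higher and 5 lower, and with levels set against general epithelial genes, an alternative chosen after seeing the data, it was 119 higher and 11 lower.

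None of the 10 genes was called between the genotypes. By limma, 2 of the 10 (Napsa and Lpcat1) had an unadjusted p under 0.05, against 15.4% of all tested genes. In 2 genes, Napsa and Lyz2, both knockout libraries lay above both of wild type, a pattern seen in 22.7% of all tested genes. In 4 genes, Sftpb, Abca3, Slc34a2 and Lpcat1, both lay below, a pattern seen in 25.4%. The other 4, Sftpc, Sftpa1, Sftpd and Lamp3, overlapped between the genotypes. The median log2 fold change of the 10, knockout minus wild type, was -0.03, beside -0.00 over all tested genes, and the median of its absolute size was 0.16 beside 0.15. For 7 of the 10 the log2 fold change was smaller than 0.3 in absolute size. In pooled tumour tissue, fewer cells of a type and less RNA per cell cannot be told apart.

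Ranks by FPKM ran from 1 for Sftpc in every library to 560 for Napsa in wild type 2. Together they took 13.0% and 12.7% of the reads of wild type 1 and 2, and 14.5% and 12.6% of those of knockout 1 and 2. These are lower bounds where a gene's counted length was a multiple of the smallest one that gives whole reads. As a share of the summed FPKM they made up 18.2% and 17.3% against 19.3% and 16.9%. Their fewest reads in any library were the 5101 of Napsa in wild type 2, and their most the 1325949 of Sftpc in the same library. Slc34a2 and Sftpd held ranks 7 to 18, Lpcat1 ranks 38 to 127, Abca3 and Lamp3 ranks 169 to 211, and Napsa ranks 375, 560, 306 and 170. Lyz2 stood at rank 4 and 5 in wild type 1 and 2 and at rank 2 in both knockout libraries, while Sftpb went from rank 2 in both wild-type libraries to 3 and 4. The full order in wild-type tumours was Sftpc, Sftpb, Sftpa1, Lyz2, Slc34a2, Sftpd, Lpcat1, Abca3, Lamp3 and Napsa. Neighbours that overlapped in that group were Sftpa1 with Lyz2, and Abca3 with Lamp3. In knockout tumours the order by mean was Sftpc, Lyz2, Sftpb, Sftpa1, Slc34a2, Sftpd, Lpcat1, Lamp3, Abca3 and Napsa, and Lyz2 overlapped with Sftpb, Sftpb with Sftpa1, and Napsa with both Lamp3 and Abca3.

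**Figure D1:**
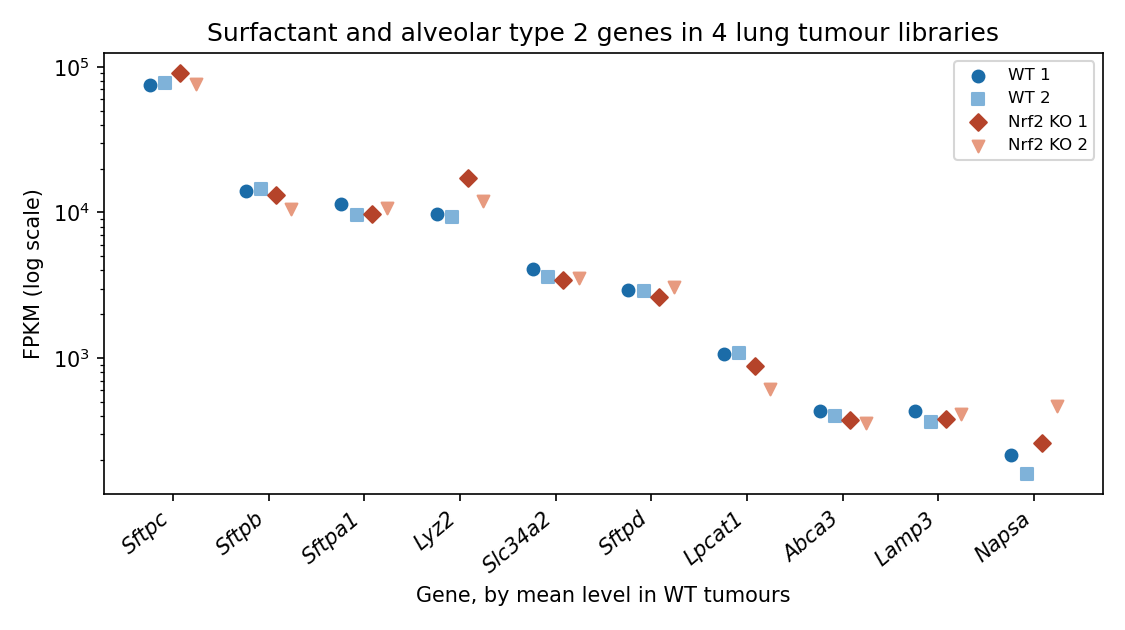
FPKM of the 10 genes (log axis) in each of the 4 libraries, 1 point per library, ordered by the mean in wild-type (WT) tumours. Sftpc, the highest, spans 75159 to 90474 FPKM, and Napsa, the lowest, spans 160.5 to 473 FPKM.

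**Figure D2:**
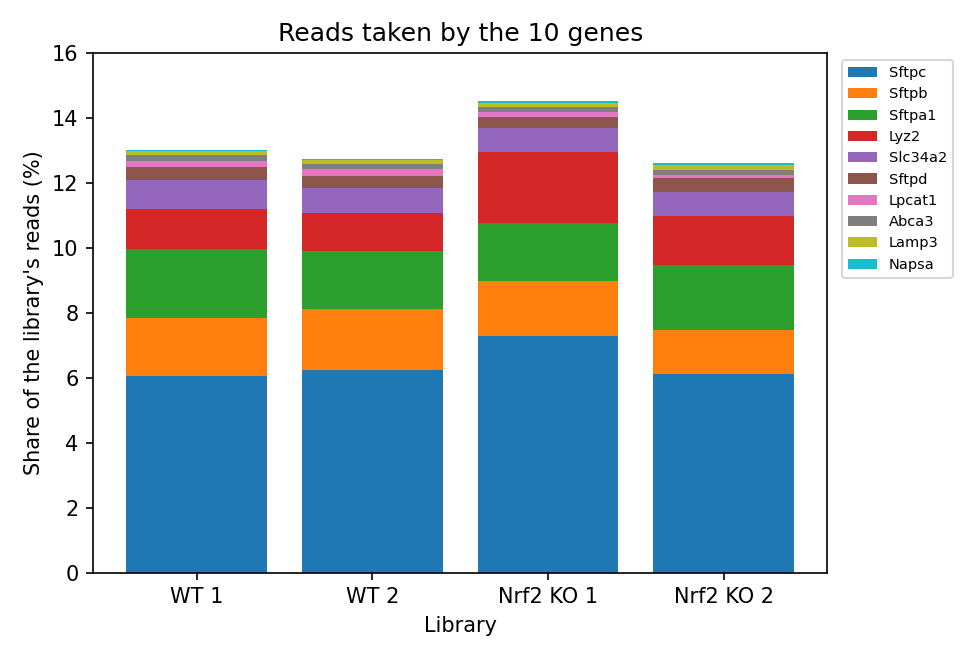
Share of each library's reads (percent, linear axis from 0) taken by the 10 genes, stacked by gene. The stacks reach 13.0% and 12.7% in wild type (WT) and 14.5% and 12.6% in knockout (KO), with Sftpc the widest band in each.

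Upstream sequence from RefSeq (build GRCm38.p6, the assembly of mm10) was found for 7 of the 10 genes, Slc34a2, Sftpb, Lyz2, Lpcat1, Sftpa1, Lamp3 and Abca3. The window runs from 250 to 51 bases before the RefSeq start, 200 bases in all, and was searched on both strands for 4 short motifs, none of which contains another. The Slc34a2 window (chr5:53049103-53049302) lies inside the annotated span of that gene, and the Abca3 window reaches into the span of Abca3. Each of these 2 windows overlaps 1 annotated exon. CTCAAG, a core of NKX2-1 sites, was in 2 of the 7 windows (Sftpb and Sftpa1) and in 11.1% of all 32851 windows of that length. TGTTTAC, a core of FOXA sites, was in 1 of the 7 (Lamp3) and in 2.58% of all. TTGCNNAA, a core of C/EBP sites, and TGACNNNGC, the core of the antioxidant response element to which NRF2 binds, were in 0 of the 7, and in 8.11% and 7.66% of all. NKX2-1, FOXA and C/EBP proteins are the lung epithelial factors best known for driving surfactant genes. The NKX2-1 core lay at positions -100 to -95 from the start of Sftpb and at -166 to -161 of Sftpa1, and the FOXA core at -92 to -86 of Lamp3. A match is a description of letters, and its absence says only that they are not in this window. The 3 windows with a match are shown, followed by those of Lpcat1 and Lyz2, whose values differed most between genotypes among the 7. Each reads 5′ to 3′ on the strand of its gene, and capitals mark the motif matches.
Sftpb (chr6:72304360-72304559, plus strand): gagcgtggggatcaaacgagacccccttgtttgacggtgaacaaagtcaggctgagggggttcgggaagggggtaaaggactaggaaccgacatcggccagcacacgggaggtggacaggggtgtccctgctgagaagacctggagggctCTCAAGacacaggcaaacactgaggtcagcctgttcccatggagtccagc
Sftpa1 (chr14:41131538-41131737, plus strand): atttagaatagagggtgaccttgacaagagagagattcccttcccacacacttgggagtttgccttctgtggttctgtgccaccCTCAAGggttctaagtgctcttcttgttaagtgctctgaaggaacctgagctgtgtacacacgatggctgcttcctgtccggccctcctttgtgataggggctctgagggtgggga
Lamp3 (chr16:19706416-19706615, minus strand): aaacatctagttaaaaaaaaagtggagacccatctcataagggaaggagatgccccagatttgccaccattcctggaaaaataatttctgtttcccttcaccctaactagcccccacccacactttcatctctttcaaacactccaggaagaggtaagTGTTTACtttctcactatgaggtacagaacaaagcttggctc
Lpcat1 (chr13:73466981-73467180, plus strand): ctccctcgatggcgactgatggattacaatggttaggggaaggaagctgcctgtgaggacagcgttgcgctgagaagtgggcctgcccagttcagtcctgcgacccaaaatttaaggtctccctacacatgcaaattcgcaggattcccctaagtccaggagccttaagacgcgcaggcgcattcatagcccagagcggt
Lyz2 (chr10:117282323-117282522, minus strand): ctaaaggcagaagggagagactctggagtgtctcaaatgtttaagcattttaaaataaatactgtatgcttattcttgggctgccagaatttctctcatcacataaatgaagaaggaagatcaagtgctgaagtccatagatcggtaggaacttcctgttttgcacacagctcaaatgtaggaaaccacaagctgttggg

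The surfactant proteins come first by role. Sftpc (chromosome 14, 70520949 to 70524081, minus strand) encodes surfactant protein C, a small hydrophobic peptide that speeds the spreading of the phospholipid film. It was at 75159 and 77718 FPKM in wild type and 90474 and 76027 FPKM in knockout. Knockout 1 was the highest and the others lay close together, so that the genotypes overlapped. The log2 fold change was 0.12 ± 0.71 (SE; limma adjusted p = 0.955), and its 95% interval ran from -1.61 to 1.85. With no variance trend in limma the standard error was 0.13, and the same change took it from 0.36 to 0.14 for Sftpb, from 0.33 to 0.14 for Sftpa1, from 0.36 to 0.19 for Lyz2, from 0.23 to 0.12 for Slc34a2 and from 0.21 to 0.13 for Sftpd. Without the trend 0 of the 10 were called, and 3 had an unadjusted p under 0.05.

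Sftpb (chromosome 6, 72304610 to 72314371, plus strand) encodes surfactant protein B, which is needed to form lamellar bodies and without which newborn mice cannot breathe. It was at 13969 and 14463 FPKM in wild type and 13069 and 10566 FPKM in knockout. Both knockout libraries were lower, knockout 2 most. The means were 14216 ± 349 and 11817 ± 1770.0 FPKM (SD, n = 2 each), a log2 fold change of -0.27 ± 0.36 (SE; limma adjusted p = 0.754; 95% interval -1.14 to 0.59). It was -0.43 without knockout 1 and -0.12 without knockout 2. Within a library, Sftpc stood at 5.38 and 5.37 times the FPKM of Sftpb in wild type 1 and 2 and at 6.92 and 7.20 times in knockout 1 and 2. This ratio was computed after the values were seen and was not tested.

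Sftpa1 and Sftpd encode surfactant proteins A and D, collectins that bind sugars on microbes and serve host defence in the air space. Both lie on chromosome 14, Sftpa1 at 41131782 to 41136452 on the plus strand and Sftpd at 41172214 to 41185149 on the minus strand. Sftpa1 was at 11426 and 9645 FPKM in wild type and 9709 and 10706 FPKM in knockout. Both knockout values lay between the wild-type ones. Sftpd was at 2929 and 2870.1 FPKM in wild-type tumours and 2629.8 and 3100.0 FPKM in knockout tumours, which were the lowest and the highest of the 4. The log2 fold changes were -0.04 for Sftpa1 (95% interval -0.84 to 0.75) and -0.02 for Sftpd (-0.54 to 0.50), with limma adjusted p = 0.967 and 0.976. With quantile normalization Sftpd was at -0.28 (limma adjusted p = 0.36).

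Abca3 and Lamp3 encode membrane proteins of the lamellar body. Abca3 (chromosome 17, 24351950 to 24410201, plus strand) encodes the transporter that moves phospholipid into lamellar bodies. It was at 433 and 398 FPKM in wild type and 378 and 359 FPKM in knockout, so that both knockout libraries were lower. The log2 fold change was -0.17 ± 0.13 (SE; limma adjusted p = 0.56; 95% interval -0.48 to 0.14), and was -0.11 without wild type 1. Lamp3 (chromosome 16, 19653378 to 19706375, minus strand), a membrane protein of lamellar bodies known as DC-LAMP and also made by mature dendritic cells, was at 431 and 364 FPKM in wild-type tumours and 384 and 416 FPKM in knockout tumours. The knockout values lay inside the wild-type range. Its log2 fold change was 0.01 (limma adjusted p = 0.979; 95% interval -0.33 to 0.36). Abca3 shares exon bases with 1 annotated gene on the opposite strand, and the use of strand in counting is not given in the sources used here.

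Slc34a2 (chromosome 5, 53038081 to 53071664, plus strand) encodes the sodium-phosphate cotransporter of type 2 cells, which takes up phosphate released as surfactant is recycled. It was at 4114 and 3593 FPKM in wild type and 3443 and 3526 FPKM in knockout. Wild type 1 stood above the other 3 libraries, and the gap between wild type 2 and knockout 2 was narrower than that between the wild-type libraries. The log2 fold change was -0.14 ± 0.23 (SE; limma adjusted p = 0.809; 95% interval -0.69 to 0.41). It was -0.04 without wild type 1, -0.24 without wild type 2 and -0.31 with quantile normalization.

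Lpcat1 (chromosome 13, 73467197 to 73516422, plus strand) encodes the acyltransferase that makes the disaturated phosphatidylcholine of surfactant. It was at 1070.4 and 1091 FPKM in wild type and 886 and 615 FPKM in knockout. The wild-type libraries were nearly equal, and both knockout libraries were lower, knockout 2 by the wider margin. The means were 1081 ± 14.6 and 751 ± 191 FPKM (SD, n = 2 each). The log2 fold change of -0.55 ± 0.21 (SE) was the most negative of the 10 (limma adjusted p = 0.298; 95% interval -1.06 to -0.04). It was -0.29 without knockout 2 and -0.81 without knockout 1, and was not called either way (adjusted p = 0.691 and 0.172).

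Napsa (chromosome 7, 44572380 to 44586862, plus strand) encodes napsin A, an aspartic protease of lamellar bodies that takes part in trimming the surfactant protein B precursor. It was at 217 and 160.5 FPKM in wild type and 259.7 and 473 FPKM in knockout. Both knockout libraries were higher, and knockout 2 stood well above the other 3. The means were 189 ± 39.8 and 366 ± 151 FPKM (SD, n = 2 each), a ratio of 1.94. The log2 fold change of 0.91 ± 0.30 (SE) was the most positive of the 10 (limma adjusted p = 0.257; 95% interval 0.18 to 1.63). Without knockout 1 it was 1.34 and called (adjusted p = 0.0282), and without knockout 2 it was 0.48 and not called (0.459). In knockout 2 Napsa stood at 1.32 times the FPKM of Abca3, against 0.501, 0.403 and 0.686 times in wild type 1, wild type 2 and knockout 1. Napsa also shares exon bases with 1 annotated gene on the opposite strand.

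Lyz2 (chromosome 10, 117277331 to 117282321, minus strand) encodes lysozyme, an enzyme that cleaves bacterial cell walls and is made by type 2 cells, macrophages and neutrophils alike. It was at 9798 and 9247 FPKM in wild type and 17198 and 11979 FPKM in knockout. Both knockout libraries were higher, with knockout 1 in front. The means were 9522 ± 390 and 14588 ± 3690.2 FPKM (SD, n = 2 each), a log2 fold change of 0.59 ± 0.36 (SE; limma adjusted p = 0.483; 95% interval -0.30 to 1.48), with an adjusted p of 0.269 when limma had no variance trend. The log2 fold change was 0.33 without knockout 1 and 0.85 without knockout 2. The similar gene Lyz1 was at 12.7 and 7.31 FPKM in wild-type tumours and 26.4 and 14.2 FPKM in knockout tumours, so that Lyz2 stood at 652 to 1265 times its level. How reads shared by such gene pairs were counted is not given in the sources used here.

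**Figure D3:**
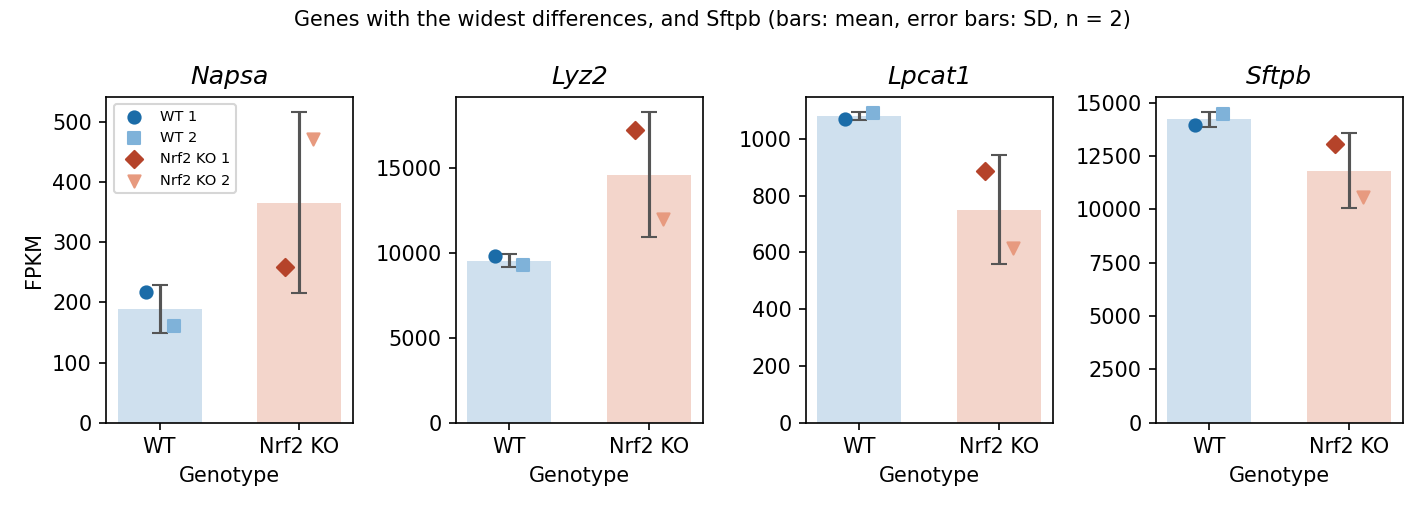
FPKM (linear axes from 0) of Napsa, Lyz2, Lpcat1 and Sftpb by genotype. Bars are means, error bars SD (n = 2) and points single libraries. The knockout (KO) libraries lie apart from each other, with Napsa at 259.7 and 473 FPKM and Lpcat1 at 886 and 615 FPKM.

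**Figure D4:**
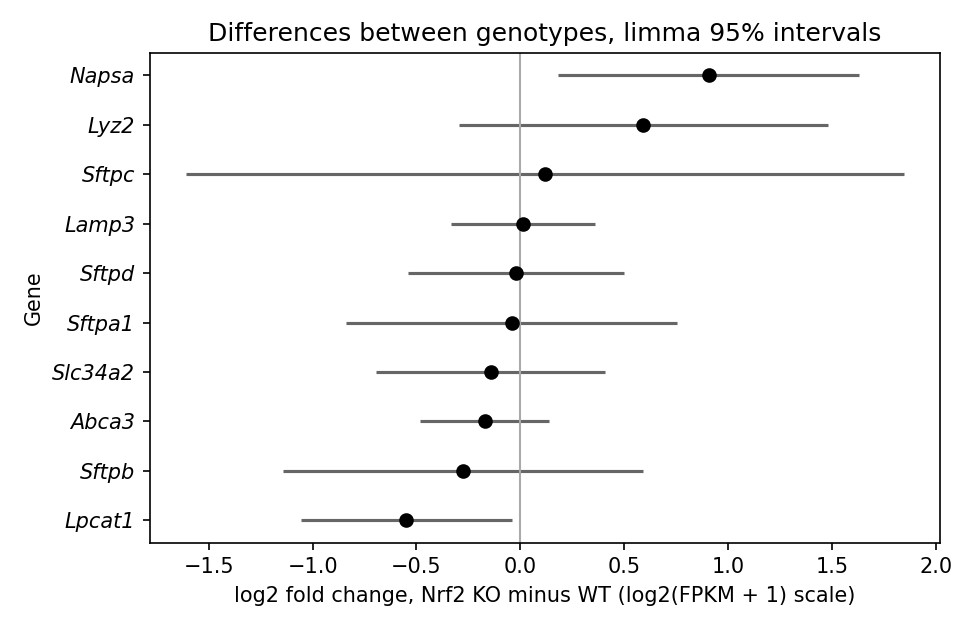
Log2 fold change of each of the 10 genes, knockout minus wild type, on the log2(FPKM + 1) scale, as points with limma 95% intervals as lines. The intervals of Napsa (0.18 to 1.63) and Lpcat1 (-1.06 to -0.04) leave out 0, and those of the other 8 genes include it.

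Macrophage and neutrophil genes were read beside Lyz2, as other sources of lysozyme. The 13 general macrophage and monocyte genes had sums of 607 and 563 FPKM in wild type against 633 and 742 FPKM in knockout, with none at 0 and 0 called (3 at an unadjusted p under 0.05, all higher). Among them the lysosomal protein gene Cd68 was at 80.8 and 78.5 FPKM against 90.2 and 79.01 FPKM, and Csf1r, the receptor for macrophage colony-stimulating factor, at 17.0 and 14.2 against 15.5 and 17.2 FPKM. The 3 higher genes were Ccr2 (2.79 and 2.39 against 4.63 and 6.75 FPKM), C1qa (60.0 and 62.8 against 72.3 and 109 FPKM) and Ly6c2 (20.9 and 20.8 against 24.8 and 29.6 FPKM). Such a p was reached by 15.4% of all tested genes in either direction. The 15 alveolar macrophage genes had sums of 1049 and 928 against 1086 and 1688 FPKM, with none at 0 and 0 of 14 tested called (2 higher and 2 lower at an unadjusted p under 0.05). The scavenger receptor gene Marco was at 20.9 and 15.4 against 3.78 and 1.34 FPKM (limma adjusted p = 0.0852), and Chil3, a chitinase-like protein gene, reached 1029 FPKM in knockout 2 against 436 to 526 FPKM in the others. The 2 higher genes were Ear2, at 140 and 149 against 216 and 220 FPKM, and Fabp4, at 41.7 and 34.3 against 62.9 and 122 FPKM (limma adjusted p = 0.124 and 0.186). The 14 neutrophil genes had sums of 35.0 and 35.3 against 112.6 and 139.5 FPKM. Of 10 tested, 8 were higher at an unadjusted p under 0.05, and 3 rose, S100a8, S100a9 and Csf3r, with log2 fold changes of 1.71, 2.04 and 1.41 (limma adjusted p = 0.0108, 0.026 and 0.0255). Ly6g, Camp, Ngp and Ltf did not pass the filter on low values and were not tested. Ltf, which is part of the sums, was at 0.421 and 0.155 FPKM in wild type and 0.771 and 8.42 FPKM in knockout. Ly6g was at 0.0723 and 0.147 FPKM in wild type and 0 in both knockout libraries. Camp was at 0.0768 FPKM in wild type 1, 0.0926 FPKM in knockout 1 and 0 in wild type 2 and knockout 2. The part of these cells in the Lyz2 values was not tested.

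Other genes of type 2 cells, 26 in all, likewise gave 0 calls among the 25 tested. Their median log2 fold change was -0.03, with 10 positive and 15 negative values. Both knockout libraries lay above both of wild type for 6 of the 25 (22.7% over all tested genes) and below for 9 (25.4%). Limma gave an unadjusted p under 0.05 for 3 higher and 2 lower (15.4% over all in either direction). S100g, which encodes the calcium-binding protein calbindin-D9k, was at 36.8 and 40.0 FPKM in wild type and 66.8 and 63.0 FPKM in knockout. Its groups lay apart with little spread, a log2 fold change of 0.74 ± 0.11 (SE; limma adjusted p = 0.0918). Hc, complement component 5, was at 276 and 209 against 344 and 467 FPKM (limma adjusted p = 0.212), with knockout 2 the highest, as for Napsa. Lyz1, also on this list, had its largest log2 fold change, 0.94 (limma adjusted p = 0.28), at 12.7 and 7.31 against 26.4 and 14.2 FPKM. Ank3, an ankyrin that ties membrane proteins to the cytoskeleton, was at 47.6 and 34.5 against 25.4 and 27.5 FPKM (limma adjusted p = 0.211). The chemokine gene Cxcl15, known as lungkine, was at 3823 to 5104 FPKM across the 4 libraries, and Ctsh, a cathepsin that also trims surfactant proteins, at 1629 to 2423 FPKM. Pgc, which encodes the precursor of pepsin C and was left untested, was at 0.0492 and 1.96 FPKM in wild type and listed at 0 in both knockout libraries.

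The lipid side of surfactant was covered by 23 genes of phospholipid and fatty acid synthesis and storage, of which 22 were tested and 0 were called. Their median log2 fold change was -0.06, with 10 positive and 12 negative. Both knockout libraries were above both of wild type for 5 of the 22 (22.7% over all tested genes) and below for 7 (25.4%). Limma gave an unadjusted p under 0.05 for 3 higher and 2 lower (15.4% over all in either direction). Plin2, which coats lipid droplets, was at 158 and 136 FPKM in wild type and 204 and 281 FPKM in knockout (log2 fold change 0.71, limma adjusted p = 0.189). Gpam, the enzyme of the first step of glycerolipid synthesis, was at 5.80 and 4.41 against 7.14 and 7.77 FPKM (limma adjusted p = 0.253). Fasn, fatty acid synthase, was at 516 and 358 against 293 and 299.7 FPKM (log2 fold change -0.53, limma adjusted p = 0.281). Atp8a1, a flippase of aminophospholipids, was at 128 and 119 against 99.8 and 84.1 FPKM (log2 fold change -0.43, limma adjusted p = 0.229). Pcyt1a, the rate-limiting enzyme of phosphatidylcholine synthesis, was at 54.3 and 47.2 against 42.5 and 41.9 FPKM.

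Among 14 transcription factors of surfactant genes, 0 were called, and 13 of the 14 log2 fold changes were negative, beside 50.8% of all tested genes. Both knockout libraries were below both of wild type for 9 of the 14 (25.4% over all tested genes) and above for 1 (22.7%). At an unadjusted p under 0.05, 3 were lower and 1 higher (15.4% over all in either direction). The median log2 fold change was -0.22, beside -0.00 over all tested genes. With levels set against general epithelial genes it was -0.07, beside 0.14 over all tested genes, with 10 of the 14 negative. Nkx2-1, the lineage factor of lung epithelium, was at 201 and 238 FPKM in wild type and 214 and 198 FPKM in knockout. Cebpa was at 505 and 580.1 against 538 and 489 FPKM, and both of these overlapped between the genotypes. Etv5, a factor that upholds type 2 cell identity and stands on both lists, was at 191 and 197 against 147 and 163 FPKM, Klf5 at 39.6 and 45.1 against 35.6 and 32.3 FPKM, and Gata6 at 31.2 and 32.3 against 23.7 and 27.6 FPKM (limma adjusted p = 0.278, 0.296 and 0.307). The positive value was that of Hopx, a homeobox gene also used as a type 1 cell marker, at 24.4 and 18.3 against 31.6 and 34.1 FPKM (limma adjusted p = 0.186).

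General epithelial genes also had mostly negative values. Of 12, all tested, 0 were called, 11 had a negative log2 fold change (50.8% over all tested genes) and the median was -0.20. Both knockout libraries were below both of wild type for 6 of them (25.4% over all), and 3 were lower at an unadjusted p under 0.05, which 15.4% of all genes reached in either direction. Epcam, an adhesion protein, was at 134 and 149 FPKM in wild type and 127 and 143 FPKM in knockout, and Krt7, a keratin, at 224 and 274 against 211 and 148 FPKM (limma adjusted p = 0.323). When levels were divided by the geometric mean of these 12 genes, the median over all tested genes moved from -0.00 to 0.14 and that of the 10 surfactant and type 2 genes from -0.03 to 0.13. Division by 1 factor per library shifts genes nearly alike, so the similar move follows from the scaling. On that scale the medians were 0.13 for other type 2 genes and 0.10 for surfactant lipid genes, both below the 0.14 over all tested genes. There the log2 fold change was 1.07 for Napsa (limma adjusted p = 0.112), 0.75 for Lyz2 (0.293), -0.39 for Lpcat1 (0.396) and -0.11 for Sftpb (0.901), and 0 of the 10 were called.

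Genes for the uptake and breakdown of surfactant by macrophages, 12 in all, gave 0 calls and a median log2 fold change of 0.06. At an unadjusted p under 0.05, 1 was higher and 2 were lower (15.4% over all tested genes in either direction). Pparg, a nuclear receptor that alveolar macrophages need to mature and that type 2 cells also make, was at 10.4 and 10.5 FPKM in wild type and 6.72 and 6.56 FPKM in knockout. The spread within each genotype was narrow (log2 fold change -0.58 ± 0.11, SE, limma adjusted p = 0.14). Lpl, lipoprotein lipase, was at 56.4 and 53.1 against 40.2 and 42.2 FPKM (limma adjusted p = 0.189). Csf2, the cytokine GM-CSF that drives surfactant clearance, was at 2.08 and 2.71 against 5.28 and 3.18 FPKM, and Csf2ra, a chain of its receptor, at 35.4 and 39.7 against 55.3 and 41.0 FPKM (limma adjusted p = 0.298 and 0.389).

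Markers of other lung cells were read beside these values. Alveolar type 1 genes had sums of 1672, 1692, 1736 and 1676 FPKM in wild type 1, wild type 2, knockout 1 and knockout 2, with 0 of 12 called (4 higher at an unadjusted p under 0.05) and none at 0. Ager, the abundant receptor of type 1 cells, was at 739 to 768 FPKM in the 4 libraries. Over the 12 type 1 genes the median log2 fold change was 0.18, with 9 positive and 3 negative. The 4 higher genes were Akap5, Hopx, Cav1 and Spock2, with Akap5 at 20.2 and 17.3 against 26.7 and 28.6 FPKM (limma adjusted p = 0.162). Club cell genes had sums of 2069 and 943 against 2652 and 3631 FPKM, with 0 of 8 tested called (5 higher and 1 lower at an unadjusted p under 0.05). Reg3g, left untested, was at 0 in both wild-type libraries and at 0.0389 and 0.0828 FPKM in knockout. Scgb1a1, the club cell secretory protein, made up most of these sums at 1709, 723, 1996 and 3099 FPKM. Endothelial genes (228, 135, 221 and 309 FPKM) and fibroblast and matrix genes (615, 405, 689 and 963 FPKM) were lowest in wild type 2 and highest in knockout 2, and of these Col6a1 rose (limma adjusted p = 0.0255) and 0 endothelial genes were called. Ciliated cell genes had sums of 36.3 and 22.4 against 45.4 and 52.4 FPKM, lymphocyte genes of 30.2 and 31.995 against 54.5 and 50.5 FPKM, and erythroid genes of 246.5 and 489.7 against 1194 and 1094 FPKM, with 0 called in each. At an unadjusted p under 0.05, which 15.4% of all tested genes reached in either direction, limma gave as higher 5 of 11 endothelial, 4 of 9 fibroblast, 2 of 5 ciliated, 8 of 9 lymphocyte and 5 of 5 erythroid genes tested. Slc4a1, the anion exchanger of red cells, was left untested, at 0 and 0.0395 FPKM in wild type and 0.14 and 0.446 FPKM in knockout. Their part in the values of the 10 genes was not tested.

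**Figure D5:**
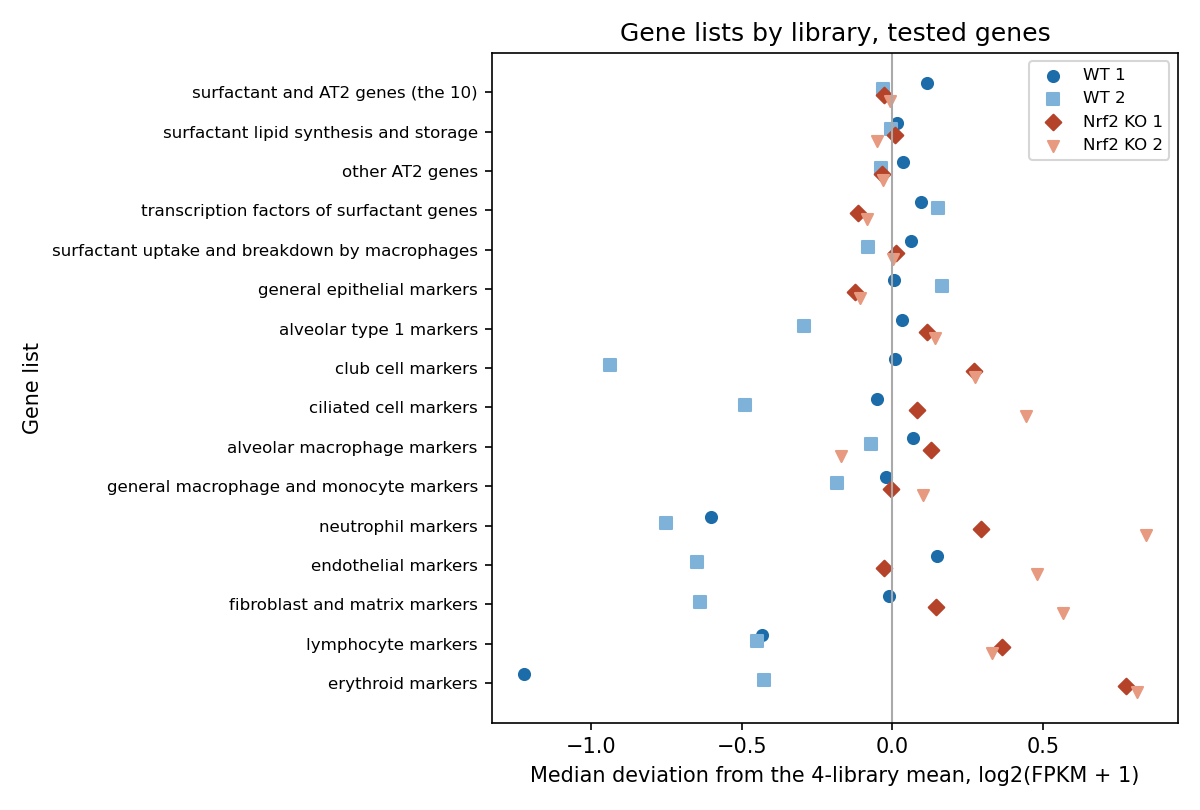
Median deviation of the tested genes of each list from their 4-library mean, on the log2(FPKM + 1) scale, 1 point per library (AT2, alveolar type 2). The 10 surfactant and type 2 genes lie between -0.03 and 0.11, and neutrophil genes between -0.75 and 0.84.

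The 10 genes did not vary in parallel across the libraries. As deviations from each gene's 4-library mean on the log2(FPKM + 1) scale, their medians were 0.11 and -0.03 in wild type 1 and 2 and -0.03 and -0.01 in knockout 1 and 2. In knockout 2, Napsa was at 0.88, Lpcat1 at -0.54 and Sftpb at -0.29. In knockout 1, Lyz2 was at 0.56 and Sftpc at 0.18, and the other 8 genes lay between -0.13 and 0.02. The coefficient of variation (n = 2 each) was 12.3% against 2.37% in wild type for Sftpc, 25.3% against 4.09% for Lyz2, 25.5% against 1.35% for Lpcat1 and 41.2% against 21.1% for Napsa. It was also wider in knockout for Sftpb and for Sftpd, which was at 11.6% against 1.44%. It was narrower in knockout for the other 4, with 1.69% against 9.56% for Slc34a2. Whether the spread differs between genotypes was not tested.

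The profile of Sftpc over the 4 libraries was compared with the other 2181 tested genes with a mean of at least 50 FPKM, by the Euclidean distance between log2(FPKM + 1) values centred on their mean. The nearest were Tardbp (distance 0.024), Usf2 (0.0469), Tmem183a (0.0539), Cenpb (0.0632) and Luc7l3 (0.0654). Tardbp, for example, was at 98.3 and 101 FPKM in wild type and 116 and 97.9 FPKM in knockout, with knockout 1 the highest as for Sftpc. Among the 9 other surfactant and type 2 genes the nearest was Abca3, at a distance of 0.337, and the farthest Napsa, at 1.16. With 4 libraries these distances describe likeness of shape and nothing more.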

How the data were processed

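The deposited table holds 1 value per gene and library in FPKM, which the authors made from sequenced tumour RNA. The submitters' processing notes name the build mm10 and the tools TopHat2 and DESeq2, with no role or version. How reads were counted, with which gene lengths, filters and strand setting, is not given in the sources used here. Low FPKM values step in whole reads, which gave the library totals. For the 10 genes, reads were recovered at the smallest gene length that made all 4 values whole within 0.02 reads, so they could be undercounted. For none of the 10 was that length an annotated one. Symbols were found for 34490 of 35275 identifiers, and positions are from GENCODE for GRCm38.

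Knockout was compared with wild type over the 13147 genes that reached 1 FPKM in 2 libraries. Values were tested as log2(FPKM + 1) with limma (3.58.1, R 4.3.3), a variance trend and Benjamini-Hochberg adjustment over these genes. Fold changes on this scale understate those of low genes. The code was tested on simulated data. Residual degrees of freedom were 2 and prior ones 4.12. Since 2 against 2 samples allow no exact two-sided permutation p under 0.333, p-values are those of the limma model. They combine a gene's own spread between these samples, which may be technical, with a trend fitted over all tested genes. For Sftpc the standard error was 0.71 with this trend and 0.13 without it, so its interval is not that of its own spread alone. Named genes are the 10, the targeted gene, called genes and up to 4 genes with the largest fold change of each list, defining markers of each list, and the 5 genes nearest to Sftpc in profile. The 10 genes and all lists were chosen with earlier results of these data known. Alternatives were other scalings, variance priors, filters and pseudocounts, a replicate block, leaving out each library and a looser threshold.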

Additional observations from a re-analysis of the deposited data

How the results depend on the processing

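The count of genes called among all tested was 15. It was 1 with no filter on low values, 69 with the replicate number as a block, 65 at an adjusted p under 0.1, and 10 to 252 with each library left out in turn (252 without knockout 1 and 55 without knockout 2). Scaling to the epithelial genes, added after seeing the data, gave 130. Same-numbered libraries tended only weakly to deviate in opposite directions (correlation of deviations -0.306 across genes). A replicate block with the numbers crossed, also added later, gave 848 calls. The numbers do not pair the samples by the labels. Of the 10 surfactant and type 2 genes, 1 (Napsa) was called without knockout 1, where the lone knockout sample is assumed to vary like the wild type, and with crossed numbers, and 0 under every other alternative run, the replicate block included. Their median log2 fold change of -0.03 was -0.13 with quantile normalization, 0.13 with epithelial scaling, and -0.14 to 0.0363 with each library left out. Changing the variance trend, the filter on low values or the replicate block leaves a gene's log2 fold change as it was by construction. Its direction could therefore not change under these settings. Of 150 values of single genes under the alternatives, 136 kept their direction and side of the threshold, 2 (Napsa) passed it, 1 became 0 (Sftpc at 0.00 with quantile normalization, which fixes the top gene by construction) and 11 changed sign. These were Sftpc at -0.0076 without knockout 1 (-0.0076 to 0.2434 with each library left out); Lamp3 at -0.0216 with quantile normalization, -0.0511 when rescaled to the other genes, -0.11 without wild type 2 and -0.05 without knockout 2; Sftpa1 at 0.08 without wild type 1, 0.03 without knockout 1 (-0.1644 to 0.08 with each library left out) and 0.12 with epithelial scaling; Sftpd at 0.10 without knockout 1 and 0.14 with epithelial scaling; and Slc34a2 at 0.0199 with epithelial scaling. Epithelial scaling and rescaling to the other genes moved the median over all genes to 0.14 and -0.06, which shifts genes nearly alike, and the cause of the other changes was not tested. Whether read depth or the spread between samples limits these genes more was not compared.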
